A study of Mus musculus with 6 samples.

Results

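Wnt ligands, their Frizzled receptors and the secreted antagonists Sfrp and Dkk were followed in open chromatin maps of mouse atrioventricular cushion mesenchymal cells. The members were the 36 protein-coding RefSeq genes of mm10 named Wnt with a number and an optional letter (19 ligands), Fzd1 to Fzd10 (10 receptors), Sfrp1 to Sfrp5 (4 genes carry such a symbol) or Dkk1 to Dkk3 (3 genes), out of 21883 protein-coding genes with coordinates. Frzb, the gene also known as Sfrp3, is listed under another symbol and was not a member. A peak belonged to a member when it overlapped the gene or the 10 kb on either side, which is called its window here. Peaks of different libraries that overlapped by at least 1 bp made up a region, and 81 of the 49048 regions of the series lay in these windows.

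Wnt proteins are lipid-modified secreted ligands that bind the extracellular domain of Frizzled proteins, which are multipass membrane receptors. With the co-receptors Lrp5 and Lrp6 they stabilise beta-catenin, and through other routes they act on cell polarity and calcium. Sfrp proteins bind Wnt ligands outside the cell, while Dkk1 and Dkk2 bind the Lrp co-receptors, and Dkk3 is a divergent relative. In the mouse heart, Wnt signalling takes part in the formation and growth of the endocardial cushions, from which valves and septa form.

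ATAC-seq, in which a transposase inserts adapters into accessible DNA, was done on an immortalised line of these cells made from mice of the H- 2Kb-tsA58 transgenic strain, at passage 6. The cells of all libraries carry this transgene, which encodes a temperature-sensitive T antigen. Cells were kept for 48 h in 25 mM glucose (high glucose, 3 libraries) or in 5.5 mM glucose (normal glucose, 3 libraries). The design asks whether glucose changes the open chromatin of cushion mesenchyme.

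The peak lists held 22156, 25020 and 22598 peaks for high-glucose replicates 1, 2 and 3, and 24263, 66 and 40350 for normal-glucose replicates 1, 2 and 3. Normal-glucose replicate 2 had no peak in any of the 36 windows and, with fewer than 1000 peaks, was left out of the main comparisons. This left 3 high-glucose and 2 normal-glucose libraries. Normal-glucose replicate 3 stood apart by the length of its list. Depth is unknown because reads were not counted in these lists, and a longer list reaches weaker sites. All libraries come from 1 cell line and the labels name no separate cultures, so the spread between libraries may be technical. Of 14 markers of mesenchyme 8 were open within 1 kb of either end of the gene in every one of the 5 libraries, among them Vim, Fn1 and Snai2, although Pdgfra, Pdgfrb and Col1a2 had none. The same count was 0 of 10 for endothelium, 0 of 10 for heart muscle, 1 of 10 for blood cells (Spi1) and 3 of 11 for epicardium and epithelia (Wt1, Upk1b and Upk3b). These counts are to be read against 35.7% of all protein-coding genes, and they carry no test.

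The RefSeq start windows of 6 of the members with a start peak in at least 4 libraries follow. With them are those of 2 members without any peak in their windows. Each runs 5′ to 3′ on the strand of the gene, from 250 bases before the listed start to 50 bases after it (RefSeq on GRCm38.p6, numbered as mm10). Capitals mark every match, on either strand, to the GC box GGGCGG, to the CCAAT box CCAAT or to the TCF/LEF core TCAAAG. The windows are chr7:89404116-89404415 on the plus strand for Fzd4, chr1:64737701-64738000 on the minus strand for Fzd5, chr1:59481897-59482196 on the plus strand for Fzd7 and chr5:4758167-4758466 on the minus strand for Fzd1. For the ligands they are chr11:59306680-59306979 on the plus strand for Wnt9a and chr4:137277385-137277684 on the plus strand for Wnt4. For the genes without a peak they are chr5:128600856-128601155 on the plus strand for Fzd10 and chr19:30549447-30549746 on the minus strand for Dkk1. The window of Fzd9, which also had a start peak in all 5 libraries, is not printed and holds 1 match to the GC box. Summits of the Fzd1 peaks, and the Wnt4 summit of normal-glucose replicate 1, fall outside the printed sequence.
Fzd4: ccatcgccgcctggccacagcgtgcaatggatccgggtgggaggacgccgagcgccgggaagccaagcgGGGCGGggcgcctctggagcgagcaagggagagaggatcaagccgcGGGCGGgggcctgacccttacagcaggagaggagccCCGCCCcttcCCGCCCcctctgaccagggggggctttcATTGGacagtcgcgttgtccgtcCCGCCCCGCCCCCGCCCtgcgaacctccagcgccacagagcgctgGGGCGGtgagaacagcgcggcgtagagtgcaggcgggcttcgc
Fzd5: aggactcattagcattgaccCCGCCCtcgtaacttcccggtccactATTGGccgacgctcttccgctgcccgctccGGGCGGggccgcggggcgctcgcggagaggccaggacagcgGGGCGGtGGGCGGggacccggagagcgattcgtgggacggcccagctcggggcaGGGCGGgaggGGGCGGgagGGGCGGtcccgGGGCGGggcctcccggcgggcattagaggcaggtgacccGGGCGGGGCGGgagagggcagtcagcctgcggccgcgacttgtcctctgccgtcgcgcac
Fzd7: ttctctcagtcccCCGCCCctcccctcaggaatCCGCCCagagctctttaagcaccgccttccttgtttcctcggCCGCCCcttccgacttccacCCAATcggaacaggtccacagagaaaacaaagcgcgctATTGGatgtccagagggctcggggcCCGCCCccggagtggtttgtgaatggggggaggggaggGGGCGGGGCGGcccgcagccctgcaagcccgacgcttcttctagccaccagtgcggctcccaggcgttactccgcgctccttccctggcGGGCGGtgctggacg
Fzd1: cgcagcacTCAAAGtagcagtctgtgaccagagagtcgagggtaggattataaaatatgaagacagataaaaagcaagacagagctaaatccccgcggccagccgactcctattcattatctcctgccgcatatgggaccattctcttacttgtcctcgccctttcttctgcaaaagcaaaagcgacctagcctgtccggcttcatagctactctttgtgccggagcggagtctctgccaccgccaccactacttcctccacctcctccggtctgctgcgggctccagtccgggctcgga
Wnt9a: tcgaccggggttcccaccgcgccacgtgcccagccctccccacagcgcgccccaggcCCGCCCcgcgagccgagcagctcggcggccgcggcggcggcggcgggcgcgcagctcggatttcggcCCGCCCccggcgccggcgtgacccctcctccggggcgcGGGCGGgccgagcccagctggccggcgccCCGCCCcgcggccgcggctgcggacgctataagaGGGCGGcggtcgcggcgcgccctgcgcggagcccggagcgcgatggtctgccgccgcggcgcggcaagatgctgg
Wnt4: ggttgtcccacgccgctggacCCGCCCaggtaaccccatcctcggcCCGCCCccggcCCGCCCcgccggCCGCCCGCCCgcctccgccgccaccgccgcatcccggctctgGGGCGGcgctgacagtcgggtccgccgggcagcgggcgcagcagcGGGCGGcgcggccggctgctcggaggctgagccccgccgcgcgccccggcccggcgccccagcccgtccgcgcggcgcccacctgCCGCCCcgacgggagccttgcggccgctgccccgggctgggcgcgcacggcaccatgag
Fzd10: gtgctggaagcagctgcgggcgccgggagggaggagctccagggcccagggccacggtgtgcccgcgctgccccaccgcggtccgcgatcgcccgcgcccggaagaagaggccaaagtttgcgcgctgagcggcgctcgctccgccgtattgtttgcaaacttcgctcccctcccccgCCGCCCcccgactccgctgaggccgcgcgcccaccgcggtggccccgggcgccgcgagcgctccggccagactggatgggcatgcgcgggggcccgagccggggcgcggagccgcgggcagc
Dkk1: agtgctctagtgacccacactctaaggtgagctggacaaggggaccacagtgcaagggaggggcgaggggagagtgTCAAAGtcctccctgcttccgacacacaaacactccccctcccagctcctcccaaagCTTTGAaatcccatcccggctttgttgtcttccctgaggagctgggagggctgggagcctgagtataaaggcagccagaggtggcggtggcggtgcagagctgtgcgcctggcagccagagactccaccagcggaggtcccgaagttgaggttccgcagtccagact

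Frizzled receptor genes were the members most often open. A gene-end peak is one that lies less than 1 kb from, or over, either end of the gene, and 7 of the 10 receptors had one in all 5 libraries, against 3 of the 19 ligands and 1 of the 7 antagonists. Over all protein-coding genes that share was 35.7%, so the receptors lay above it, the ligands and antagonists below it, and the 11 of 36 members together close to it. No gene-end peak in any library was found for 2 receptors, 12 ligands and 6 antagonists, 20 members in all, against 48.0% of all protein-coding genes. With each list cut to its top 22149 nuclear peaks by −log10 p, called equal length here, the count was 10 of 36, against 34.0% of all genes. These counts are descriptions, with no test over the members. In bulk chromatin, fewer cells with an open site and a less open site in each cell cannot be told apart.

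**Figure D1:**
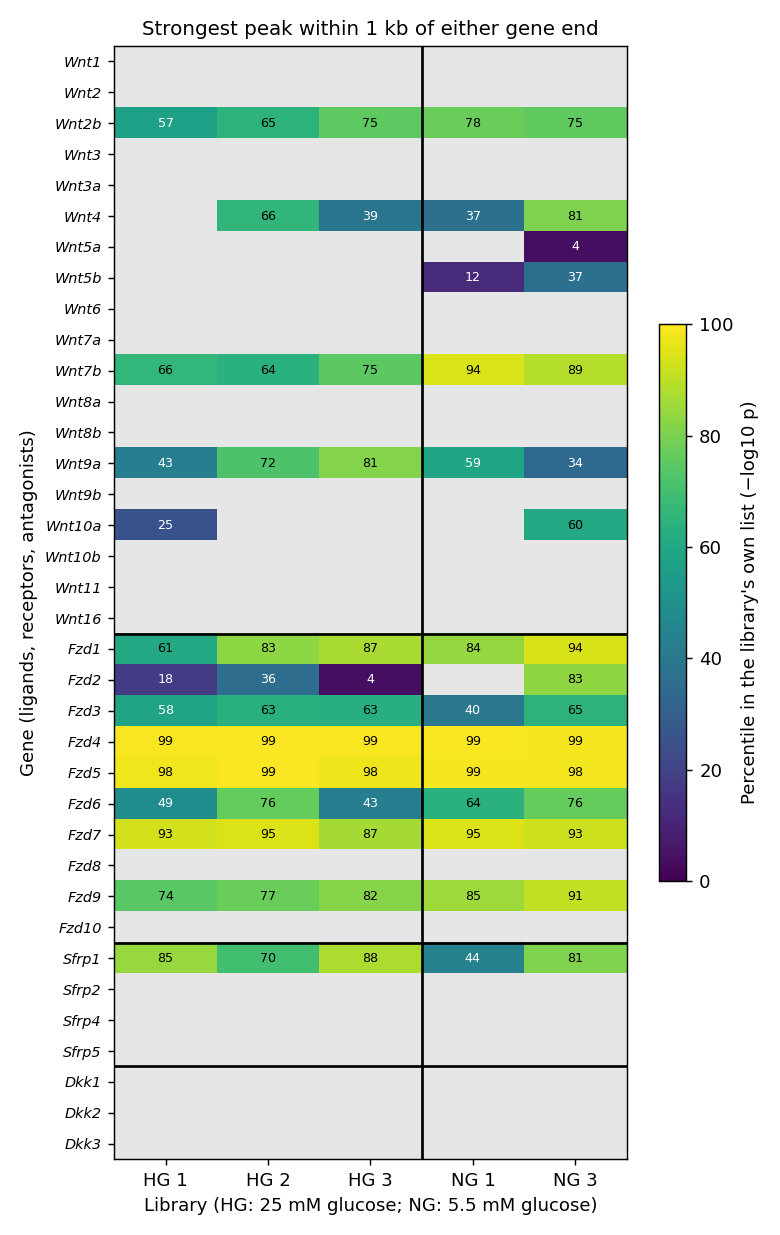
Each row is a gene and each column a library, high glucose (HG) left of normal glucose (NG). The colour and number give the percentile of the strongest peak within 1 kb of either gene end in that library's own list by the authors' −log10 p, and grey means that no peak was listed. Frizzled rows are mostly filled, ligand and antagonist rows mostly grey, and Fzd4 and Fzd5 stand at 97.6 or above in every library.

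Fzd4 (chromosome 7, 89404366 to 89410110), the receptor that also binds norrin, had the strongest gene-end peak of the members. Peaks were ranked by the authors' −log10 p, and a percentile is the percentage of the same library's listed nuclear peaks at or below the peak. Percentiles run by replicate, 1, 2 and 3 for high glucose and 1 and 3 for normal glucose. The Fzd4 peak stood at 99.0, 99.3 and 99.1 in the high-glucose lists and at 99.2 and 98.8 in the normal-glucose lists. All 5 libraries were thus near the top of their lists, and 1.47% of the 7815 genes open at an end in all 5 libraries had a weakest percentile at least as high. The fold enrichment that the authors' caller gave for the peak ran to 21.3, 25.5 and 21.0 in the high-glucose lists and to 21.1 and 20.1 in the normal-glucose lists. Summits lay 77 to 116 bases before the Fzd4 start, among the GC boxes printed above, with the ATTGG match nearer to the start. The region also covers the start of Tmem135, which runs the other way from a listed start 144 bp upstream, so the peak cannot be assigned to Fzd4 alone.

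Fzd5 (chromosome 1, 64730558 to 64737750), a receptor needed for vascular development of the mouse yolk sac and placenta, was next. Its peak stood at 97.9, 99.3 and 97.6 in the high-glucose lists and at 98.5 and 98.3 in the normal-glucose lists. It was the widest of the gene-end peaks, at 551, 552 and 562 bp in high-glucose replicates 1, 2 and 3, and 379 and 609 bp in normal-glucose replicates 1 and 3. In normal-glucose replicate 1 the caller listed a second peak just inside the gene, so the narrower value there is part of the same open stretch. Fzd5 has 10 matches to the GC box in its start window, the most among the printed sequences, and the strongest summit of each library fell 16 to 46 bases before the start.

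Fzd7 lies on chromosome 1, at 59482147 to 59486955. Its peak ranked below these, at 93.1, 94.9 and 86.6 in the high-glucose lists and at 94.8 and 92.6 in the normal-glucose lists. Its summits lay 36 to 69 bases before the start, downstream of both CCAAT-box matches. Fzd4, Fzd5 and Fzd7 each had a single region in their windows, and it lay at the start.

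Fzd9 (chromosome 5, 135248938 to 135251047) and Fzd1 (chromosome 5, 4753839 to 4758216) were open at the start in all 5 libraries at lower ranks. Fzd9 stood at 74.4, 77.4 and 81.9 in the high-glucose lists and at 85.2 and 90.7 in the normal-glucose lists. Fzd1 stood at 60.5, 83.1 and 87.4 in the high-glucose lists and at 84.0 and 94.1 in the normal-glucose lists. The places of the summits differed between these genes. The strongest summit of each library fell 192 to 217 bases before the start in Fzd9, and 102 to 256 bases after it, within the gene, in Fzd1. High-glucose replicate 3 also listed a weaker Fzd9 peak, at 14.0, with its summit 272 bases after the start. The Fzd1 start window, which holds a TCF/LEF core match 242 bases before the start, has no match to the GC box or the CCAAT box.

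**Figure D2:**
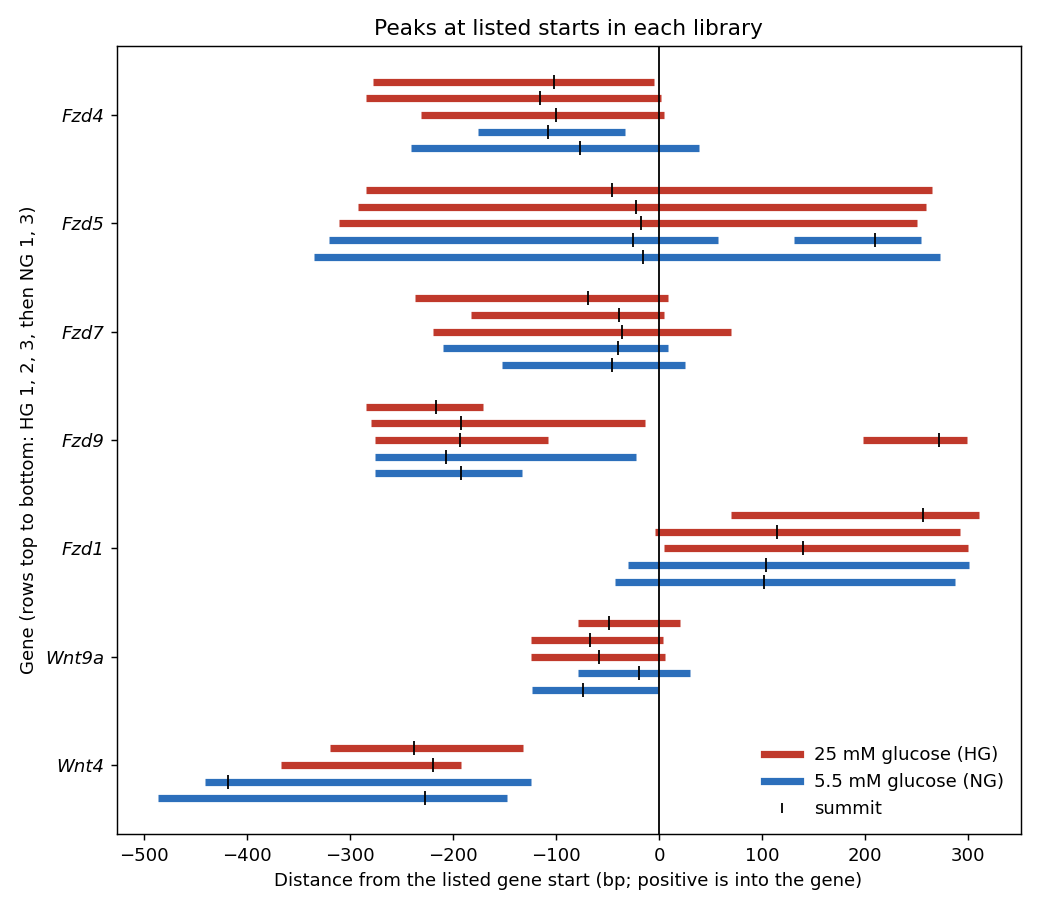
Bars give the extent of each listed peak around the listed start of 7 genes, in bp along the gene, with ticks at the summits. Rows run from high-glucose replicates 1, 2 and 3 to normal-glucose replicates 1 and 3. Peaks of Fzd4, Fzd5, Fzd7 and Wnt9a have their strongest summits within 116 bases before the start, those of Fzd9 and Wnt4 have theirs farther before it, and those of Fzd1 have theirs inside the gene. A second, weaker peak of high-glucose replicate 3 lies inside Fzd9, and one of normal-glucose replicate 1 inside Fzd5.

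Fzd3 and Fzd6, receptors with roles in planar polarity and axon guidance in the mouse, were open at a gene end in all 5 libraries at middle ranks. Fzd3 stood at 58.5, 63.5 and 63.0 in the high-glucose lists and at 39.9 and 64.7 in the normal-glucose lists. Fzd6 stood at 48.7, 76.4 and 42.6 in the high-glucose lists and at 63.8 and 76.3 in the normal-glucose lists. Both had 1 region shared by all 5 libraries, and their other regions were listed in 1 library each. No start was listed for these genes in the annotation used.

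Fzd2 (chromosome 11, 102604431 to 102608058) was the receptor with a gene-end peak in some libraries and not in others. The 3 high-glucose lists placed its gene-end peak at 17.5, 35.7 and 3.64, and the list of normal-glucose replicate 3 placed it at 83.3, while normal-glucose replicate 1 listed none. The peak was weak in 3 of the 4 libraries that held it, and with only peaks at a −log10 q of at least 5 it was present in 2. The highest and the missing value both came from normal glucose. Fzd8 and Fzd10 had no region at all in their windows, and the nearest region shared by all 5 libraries lay 233675 bp from Fzd8 and 404248 bp from Fzd10, against a median of 10007 bp over all protein-coding genes.

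Among the ligands, Wnt9a (chromosome 11, 59306849 to 59333552), known for its part in joint formation in the mouse, was the one open at a listed start in all 5 libraries. RefSeq start windows were available for 25 of the 36 members and 17491 of all protein-coding genes, and a peak within 1 kb of a listed start was present in all 5 libraries for 38.6% of all genes with a listed start. The members reached it with 5 of 6 receptors, 1 of 15 ligands and 0 of 4 antagonists. The peak of Wnt9a stood at 42.8, 72.0 and 81.4 in the high-glucose lists and at 59.3 and 34.1 in the normal-glucose lists. It was narrow, 100 to 131 bp, with summits 20 to 74 bases before the start. A second region shared by all 5 libraries lay 2221 to 2436 bp after the start, and Wnt9a had 6 regions in all. With lists of equal length the start peak was kept in 4 libraries.

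Wnt4 (chromosome 4, 137277635 to 137299501), a ligand known for kidney and female gonad development, had a start peak in 4 of 5 libraries. High-glucose replicate 1 listed none. The others had percentiles of 65.7 and 38.7 for high-glucose replicates 2 and 3, and of 36.7 and 80.5 in the normal-glucose lists. A region inside the gene, 9662 to 9898 bp after the start, was also present in 4 libraries but was missing from high-glucose replicate 2.

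Wnt2b and Wnt7b, the other ligands with a gene-end peak in all 5 libraries, did not have it at a listed start, as the Wnt2b peak lay elsewhere and no start was listed for Wnt7b. The Wnt2b region lay 16441 to 16687 bp after its listed start, at the far end of the gene (chromosome 3, 104945022 to 104945268). It stood at 57.1, 64.5 and 75.1 in the high-glucose lists and at 77.6 and 75.4 in the normal-glucose lists. No library listed a peak within 1 kb of the Wnt2b start. The Wnt7b region (chromosome 15, 85534284 to 85534602) lay 835 bp beyond the low-coordinate end of the gene. It stood at 66.1, 63.9 and 74.8 in the high-glucose lists and at 94.2 and 88.8 in the normal-glucose lists. Ranks in lists of different length cannot show whether openness differed between the glucose levels, here or for the other members.

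The remaining ligands had no gene-end peak in all 5 libraries. Regions that all 5 shared around them lay away from their ends, which follows largely from that choice. A region shared by all 5 libraries lay in the window of 12 of 19 ligands, 7 of 10 receptors, 2 of 4 Sfrp genes and 0 of 3 Dkk genes, 21 members in all, against 50.0% of all protein-coding genes. Of the 12 ligands, Wnt6, Wnt7a, Wnt5b, Wnt9a and Wnt9b held such a region inside the gene away from its ends. In Wnt6 it lay 1284 to 1529 bp after the listed start and in Wnt7a 38034 to 38291 bp after it. Around Wnt5a, a main ligand of the beta-catenin-independent branch, the shared region lay 5423 bp beyond the high-coordinate end (chromosome 14, 28532871 to 28533159). The Wnt5a region stood at 28.2, 51.9 and 38.4 in the high-glucose lists and at 58.8 and 54.6 in the normal-glucose lists. Wnt2, Wnt3, Wnt3a, Wnt8a, Wnt8b and Wnt11 had regions in their windows, but none that all 5 libraries shared, and the same was true of Wnt4.

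Wnt1 and Wnt10b, neighbouring genes 11650 bp apart for ligands that act through beta-catenin, shared 2 regions present in all 5 libraries. One lay at chromosome 15, 98780606 to 98781050, between the genes, 2400 bp from Wnt10b and 8807 bp from Wnt1. It stood at 79.8, 88.4 and 59.3 in the high-glucose lists and at 86.8 and 90.5 in the normal-glucose lists. A second, at 98780162 to 98780378, stood at 68.9, 74.7 and 78.4 in the high-glucose lists and at 81.8 and 82.8 in the normal-glucose lists. No library listed a peak within 1 kb of an end of either gene, and both regions count for both genes. This depends on the width chosen, since with 2.5 kb at gene ends Wnt10b had a peak in 5 libraries and Wnt1 in 3. Wnt10b had 6 regions in its window, 4 of them shared by all 5 libraries, of which 1 lay at the end of Arf3.

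**Figure D3:**
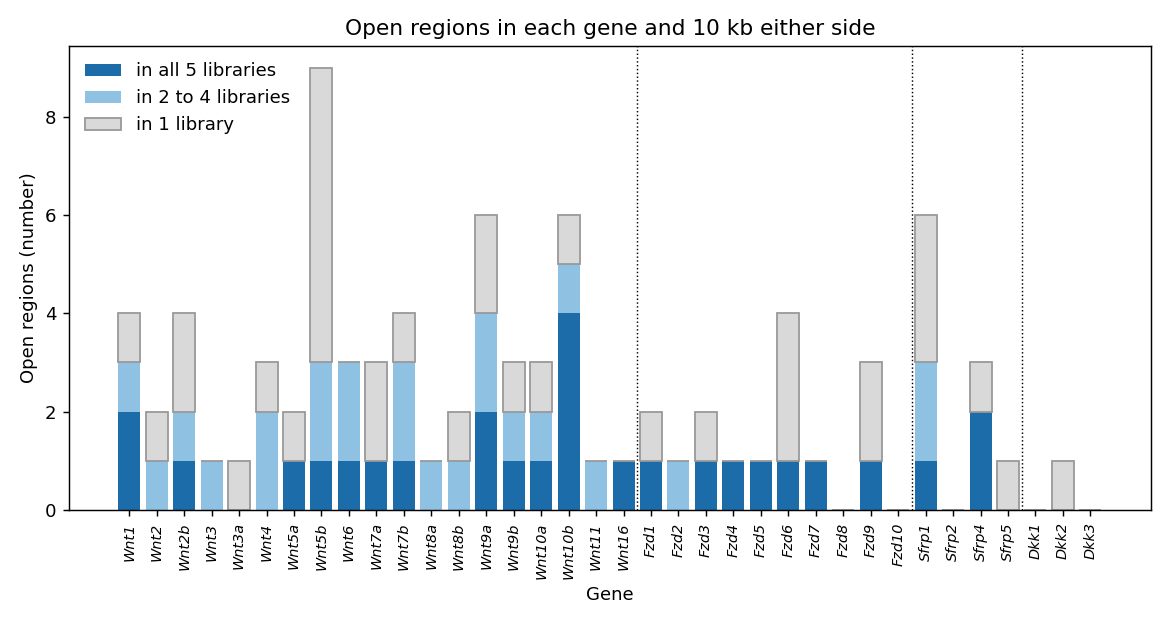
Bars give the number of open regions in each gene and 10 kb either side, split by how many of the 5 libraries held a peak. Wnt5b has 9 regions, Wnt9a, Wnt10b and Sfrp1 have 6 each, most receptors have a single shared region, and Fzd8, Fzd10, Sfrp2, Dkk1 and Dkk3 have none.

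Of the secreted antagonists, Sfrp1 alone was open at a gene end. At the low-coordinate end of Sfrp1 (chromosome 8, 23411330 to 23411580) a peak stood at 84.7, 69.6 and 87.6 in the high-glucose lists and at 44.0 and 80.7 in the normal-glucose lists. The groups overlapped, and the lowest value came from normal-glucose replicate 1. Sfrp1 had 6 regions in its window, and the others were listed in 1 or 2 libraries. In the Sfrp4 window 2 regions were shared by all 5 libraries, and both lay within 1 kb of an end of the neighbouring gene Epdr1, not at Sfrp4. Sfrp2, Dkk1 and Dkk3 had no region, and Sfrp5 and Dkk2 had 1 each, listed in high-glucose replicate 2 alone at 43.9 for Sfrp5 and 8.94 for Dkk2. Of the 36 members 5 had no region, against 27.6% of all protein-coding genes.

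Many ligand starts without a peak were rich in CpG. A peak over the start window was present in all 5 libraries for 5 members (Fzd4, Fzd5, Fzd7, Fzd9 and Wnt9a), 5 of 28 windows, against 30.0% of all 21262 windows. In the start windows of members without a peak over the window in any library, the median count of CpG dinucleotides was 24 in 300 bases (21 windows), against 4 for all such windows of protein-coding genes (11338 windows). Among all windows with 24 CpG or more, which is the median of windows with a peak in all 5 libraries, 59.9% had a peak over the window in all 5 libraries and 17.6% in none. Of 12 such ligand windows 1 had a peak in all 5 libraries and 10 had none, those of Wnt1, Wnt2, Wnt2b, Wnt3, Wnt3a, Wnt5b, Wnt6, Wnt7a, Wnt9b and Wnt11. Of 5 such receptor windows 4 had a peak in all 5 libraries and Fzd10 had none. Wnt3a had 45 CpG and a GC content of 86.3%, and Fzd10 had 45 CpG and 77.7%, next to the open windows of Fzd4 (32 CpG, 72.7%) and Fzd5 (38 CpG, 75.7%). The CpG limit was chosen after these sequences were seen, and the counts carry no test.

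Motif matches were found in members with and without a peak. The GC box GGGCGG was found in 5 of 5 member windows with a peak over the window in all 5 libraries and in 15 of 21 without a peak. Over all genes it was found in 77.2% of windows with a peak in all 5 libraries, in 24.0% of windows without a peak and in 46.2% of all 21262 windows. The TCF/LEF core TCAAAG occurred in 4 of 28 member windows, in Dkk1, Fzd1, Wnt11 and one of the Wnt5b starts, and in 14.4% of all windows. Dkk1 held it at 174 and 117 bases before the start, as capitals above show. The longer form CTTTGAT, whose reverse complement contains the core, occurred in 2 of 28 and in 3.22% of all. For CCAAT the counts were 11 of 28 and 38.2%, for the E-box CANNTG 19 of 28 and 69.0%, for the AP-1 site TGANTCA 1 of 28 and 6.99%, and for the TEAD site GGAATG 1 of 28 and 13.6%. Both strands were searched, and a match describes letters, not a bound site.

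Other genes of the pathway, which act on either side of the receptors, were counted in the same way. A gene-end peak in all 5 libraries was found in 31 of 63 listed genes, to be read against the 35.7% given above. By role, these were 9 of 19 genes of ligand secretion and activity, 0 of 7 co-receptors and further receptors, 9 of 16 transducers, 6 of 12 nuclear factors and 7 of 9 planar polarity genes. Porcn and Wls, which acylate Wnt ligands and carry them to the surface, were among the first group. Ctnnb1, which encodes beta-catenin, Gsk3b, Apc and all of Dvl1, Dvl2 and Dvl3 were among the transducers, and Tcf7, Tcf7l1 and Tcf7l2 among the nuclear factors. Of the 7 co-receptors and further receptors 5 had a gene-end peak in some libraries, and Lrp6, Ror1, Ror2 and Ptk7 had it in 4. For Axin1, Axin2 and Lrp5 no library listed a gene-end peak. Frzb had a gene-end peak in 2 libraries, at the 36.3 percentile in high-glucose replicate 2 and at the 21.3 percentile in normal-glucose replicate 3.

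No difference between glucose levels in these windows passed a test. The windows of the 36 genes held 33, 44 and 40 peaks in high-glucose replicates 1, 2 and 3, and 47 and 61 in normal-glucose replicates 1 and 3. The groups do not overlap. The mean was 39.0 ± 5.57 peaks (SD, n = 3) for high glucose, against 54.0 ± 9.90 (SD, n = 2) for normal glucose. The difference of -15 peaks had p = 0.2 by a two-sided exact permutation test, and 3 against 2 libraries cannot give a smaller p. As a share of each list the values were 0.149%, 0.176% and 0.177% in high-glucose replicates 1, 2 and 3, and 0.194% and 0.151% in normal-glucose replicates 1 and 3. By this share the groups overlapped, with a difference of -0.00517 percentage points (p = 0.8, exact permutation test). At equal list length there were 33, 39 and 37 peaks in high glucose and 41 and 37 in normal glucose, a difference of -2.67 (p = 0.6, exact permutation test).

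**Figure D4:**
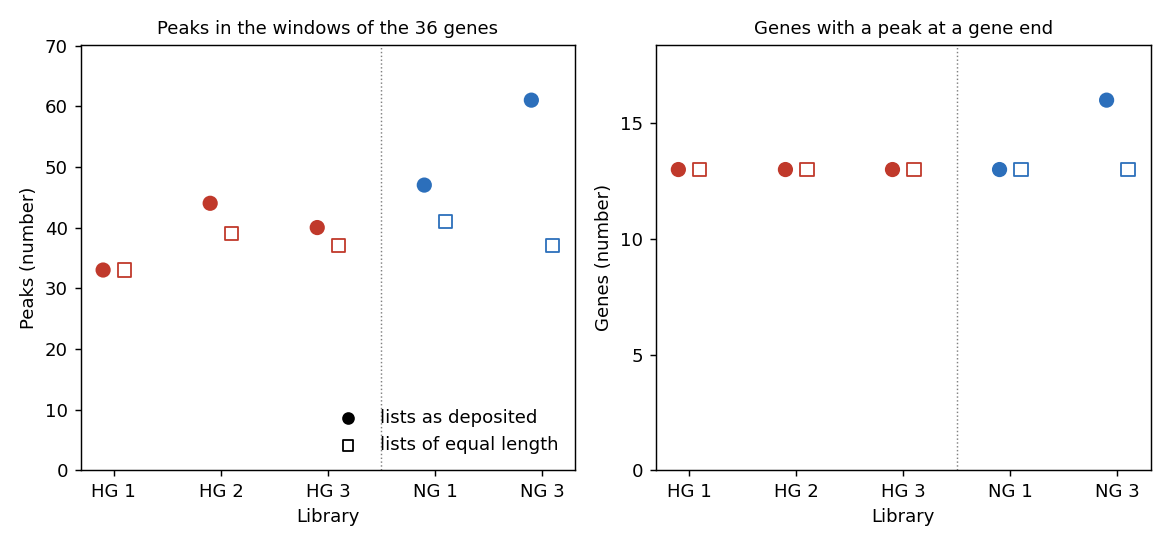
The left panel gives the number of peaks in the 36 windows and the right panel the number of the 36 genes with a gene-end peak, by library, with high glucose (HG, red) left of normal glucose (NG, blue). Filled circles are lists as deposited and open squares lists of equal length, where every library has 13 genes and the peak counts run from 33 to 41.

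The number of members with a gene-end peak was 13 in each of the 3 high-glucose libraries, and 13 and 16 in normal-glucose replicates 1 and 3. Over all protein-coding genes the share was 41.6%, 44.5% and 43.0% in the high-glucose lists and 42.4% and 49.8% in the normal-glucose lists, so it too was highest in normal-glucose replicate 3. The difference of -1.5 genes had p = 0.8 (two-sided exact permutation test), and with lists of equal length all 5 libraries had 13, where the share of all genes ran between 41.0% and 42.8%. In the lists as deposited, the members with a gene-end peak were made up as follows. Receptors numbered 8 in each high-glucose library, and 7 and 8 in normal-glucose replicates 1 and 3. Ligands numbered 4 in each high-glucose library, and 5 and 7 in normal-glucose replicates 1 and 3. Sfrp1 was the last member in every library.

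Regions listed in every library of 1 condition and in none of the other were found for normal glucose and not for high glucose. For high glucose there was none among the 81 regions, where 0.167% of all 49048 regions met this rule. For normal glucose there were 6 of the 81, a larger share than the 3.73% of all regions. With lists of equal length 0 of 59 member regions were specific to high glucose, against 0.956% of all. Specific to normal glucose were 3 of 59, a larger share than the 1.62% of all. These counts are small and carry no test. The 6 regions lay in the windows of 7 members (19.4%), against 7.52% of all protein-coding genes with such a region. The normal-glucose count rests on which libraries enter, as it was 22 without normal-glucose replicate 1 and 11 without normal-glucose replicate 3. The high-glucose count was 1 without high-glucose replicate 3 or normal-glucose replicate 3. Leaving out a library loosens the rule for all regions of the series. The share over all regions was not computed there, so these counts have no share to be read against. Gene by gene, Wnt5b was the sole member open at an end in normal-glucose replicates 1 and 3 with no such peak in any high-glucose list, a rule met by 0.699% of all genes, and no member met the reverse rule, which 0.0640% did. With lists of equal length no member met either rule, against 0.484% of all genes for high glucose and 0.210% for normal glucose.

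The Wnt5b peak lay beyond the end of the gene and not at a start. It was at chromosome 6, 119432078 to 119432229, 302 bp beyond the low-coordinate end, which for this gene on the minus strand is the 3′ end. It stood at 12.5 and 36.9 in the normal-glucose lists and was listed in no high-glucose library. None of the 3 listed Wnt5b starts had a peak within 1 kb in any library. The region inside Wnt5b that all 5 libraries shared (119512774 to 119512964) stood at 14.0, 10.0 and 73.1 in the high-glucose lists and at 7.35 and 75.3 in the normal-glucose lists. Of the 9 regions in the Wnt5b window 3 lay at the end of Fbxl14, another gene, and 1 of them was listed in high-glucose replicates 1 and 2 alone.

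The 5 other normal-glucose regions lay inside Sfrp1, Wnt6 and Wnt11, in Wnt3 and beside Wnt8a. The region inside Sfrp1 (chromosome 8, 23435544 to 23435673) stood at 63.8 and 43.2 in the normal-glucose lists, and the region in Wnt11 (chromosome 7, 98851260 to 98851521) at 33.1 and 33.9. The region in Wnt6 (chromosome 1, 74759956 to 74760079) stood at 7.35 and 23.6. With lists of equal length these were no longer specific, while those in Wnt3 and beside Wnt8a were, and a region 6144 bp from Wnt2b was added. The Wnt3 region (chromosome 11, 103780236 to 103780431), which also lies in the window of Wnt9b, a ligand of the valve endocardium in the mouse, stood at 23.3 and 72.9 in the normal-glucose lists. The region 3878 bp from Wnt8a (chromosome 18, 34538312 to 34538449) stood at 12.5 and 56.8.

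Regions in these windows were shared between libraries about as often as others. Of the 81 regions 25 (30.9%) were present in all 5 libraries and 35 (43.2%) in a single one, against 25.1% and 39.7% of all regions. At the members' own ends 11 of 20 regions were present in all 5 libraries, inside the genes 5 of 25, in the flanks 6 of 28 and at the ends of other genes 3 of 8. Of the 35 regions found in a single library 16 were in normal-glucose replicate 3, while high-glucose replicates 1, 2 and 3 held 0, 7 and 7, and normal-glucose replicate 1 held 5. Over the whole series 11560 of 19459 regions found in a single library were in normal-glucose replicate 3, a larger share than in these windows.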

How the data were processed

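Peak lists of 6 ATAC-seq libraries, each from 54000 cells and 50 bp paired-end reads per the labels, were analysed. Per the submitters' processing notes, which give no roles, the build was mm10 and the tools were MACS2 2.1.0, DiffBind 1.12.3, edgeR, Bowtie 1.0.0, cutadapt 1.0, Picard 1.90, SAMtools 0.1.19 and FastQC. The transposase shift and the treatment of duplicates are not given in the sources used here. Each deposited list gives, as the authors' own values per peak, a score, a fold enrichment ratio, significance as −log10 p and −log10 q, and the summit. These rank peaks within 1 list only, as the percentage of its nuclear peaks with a −log10 p at or below the peak's.

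Only presence of a peak was compared between libraries. The members, lists and rules were chosen with earlier results of these data known. Gene starts had been planned as the main measure, but the start table does not cover every member, so both gene ends served as the main windows and listed starts as the alternative. Values in every library were given for members with a region specific to a condition with full and with equal lists. They were also given for the 8 highest by their weakest gene-end peak and for those specific at a gene end. Members with most regions were included too, where the fifth and sixth places were tied among Wnt1, Wnt2b, Wnt7b and Fzd6. Others were added after their values were seen. Percentages over all genes or regions were computed by the same rule. Means were compared by exact permutation tests over libraries. Equal lists held the top 22149 peaks by −log10 p. Computations used SciPy 1.17.1, pandas 2.3.3 and numpy 2.4.6 under Python 3.11.15, and plots matplotlib 3.10.9. The code for region calls was checked on simulated lists that differed in peak presence only at planted regions. This does not measure false calls in the real lists. Overlaps were checked with bedtools 2.31.1.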

Additional observations from a re-analysis of the deposited data

How the results depend on the processing

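The number of peaks in the windows had the same direction in all alternatives run without normal-glucose replicate 2 (-22 to -8 with each library left out), and gave 3 with all 6 libraries. The difference in the share of peaks reversed, to 0.00192 percentage points at a −log10 q of at least 5, 0.0523 with all 6 libraries, 0.00212 with 50 kb either side of the gene, and -0.0264 to 0.0161 with each library left out. Genes with a gene-end peak differed by 3.33 with all 6 libraries and by -3 to 0 with each library left out. In the runs with all 6 libraries, normal-glucose replicate 2 entered with 0 peaks in the windows. The cause of the changes was not tested. With all 6 libraries no region was shared by every library, which gave 0 members with such a region, 0 open at an end and 0 normal-glucose regions, because the added list is nearly empty. The 21 members with a shared region became 13 for the gene body alone, 15 with 1 kb and 29 with 50 kb either side. They became 16 at a −log10 q of at least 5 and 21 to 22 with each library left out. The 11 open at an end became 6 for listed starts, where fewer genes were covered, and 11 to 12 with each library left out. Except for listed starts, the shares of all genes were not computed here, so these member counts have no share to be read against. Normal-glucose regions numbered 3 with equal lists, 2 at a −log10 q of at least 5 and 6 to 22 with each library left out, and high-glucose regions 0 to 1. For the −log10 q limit and for left-out libraries the shares over all regions were not computed. Leaving out regions at the ends of genes outside the families was an alternative chosen after seeing the data. It lowered the 21 members with a shared region to 19, as Fzd4 and Sfrp4 had no other shared region. The share of all genes was not computed for this alternative either. The 0 high-glucose and 6 normal-glucose regions stayed the same. The number of libraries with a gene-end peak changed for 3 of 36 members with equal lists, 4 at a −log10 q of at least 5 and 4 with windows of 2.5 kb at gene ends (Wnt10b 5, Wnt1 3, Wnt10a 3 and Dkk2 1). With same-numbered libraries as pairs 1 and 3 (replicate block) the peak difference was -17.5 (p = 0.5, exact sign-flip test, the smallest possible), the share -0.00946 and the genes -1.5. The labels do not say that numbers pair libraries, so the numbers were not taken as pairs. Deviations of peak presence from the group mean correlated at -0.0140 for number 1 and 0.0144 for number 3. With 2 normal-glucose libraries those deviations mirror each other, so the correlations cannot decide on pairing. Depth is unknown, so an unlisted peak does not show closed chromatin.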
